A study of Mus musculus with 12 samples.

Results

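The integrated stress response genes examined here were Atf4, Ddit3, Atf3, Trib3, Asns, Chac1, Sesn2, Psat1, Phgdh and Vldlr, chosen by name from the gene symbols of a bulk RNA-seq table. All 10 were found, among 25116 genes in the table, and all 10 passed the filter on low counts that left 15199 genes for testing. The samples were day 22 tumours that E0771, a triple-negative mammary carcinoma line of the mouse, formed in the fat pads of mice of its own strain background. All host mice had the genotype Tie2CreER;ERKi on C57BL/6J, so the controls carried the recombinase and the inducible endorepellin gene too. Tie2CreER is a tamoxifen-activated Cre driven by the Tie2 promoter, which is active in endothelium and is also known to be active in some blood cells. Endorepellin, the C-terminal fragment of the proteoglycan perlecan, is known to inhibit angiogenesis. The 5 control tumours came from mice given a control injection and the 7 induced tumours from mice given tamoxifen, so the drug and the expression of endorepellin cannot be told apart. The labels do not give the age of the mice or say whether each tumour came from its own mouse, and if tumours shared a mouse the p-values would measure only the spread between tumours.

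The integrated stress response is the shared answer of cells to lack of amino acids, unfolded protein in the endoplasmic reticulum, haem shortage and viral RNA. Each of these activates a kinase that phosphorylates the translation factor eIF2alpha, which lowers protein synthesis overall and raises translation of the Atf4 mRNA through its upstream open reading frames. The ATF4 protein then switches on genes for amino acid synthesis, transport and redox balance and, when stress lasts, the CHOP gene Ddit3. Since ATF4 is controlled largely in translation, the mRNA level of Atf4 is known to be a partial measure of its activity. In tumours the pathway is known to be engaged where nutrients or oxygen are short.

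Composite elements for ATF4 and C/EBP proteins hold the core TGATGNAA, and the promoter stretches that held it are shown because these members carry the letters in the window that could be read. Sequences and starts are those of RefSeq on GRCm38.p6, which gave 12 windows for the 10 members, since Psat1 and Vldlr had 2 starts each. The search covered both strands of the 250 bases before each start. Capitals mark the match, and TTGCATCA is the core read on the opposite strand. Stretches reach 60 bases to each side of the match where the window allows, or 11 bases in Asns and Vldlr. In those 2 genes the stretch lies before the RefSeq start used here. It overlaps an exon of the same gene in the GENCODE annotation, so it is not upstream of the gene there. The Atf3 stretch overlaps no exon in that annotation. It lies within the span of Atf3 there, chr1:191170296-191218039 on the minus strand, so it is not upstream of the gene either.

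Asns, chr6:7693214-7693243, minus strand: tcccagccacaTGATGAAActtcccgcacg

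Chac1, chr2:119350992-119351116, plus strand: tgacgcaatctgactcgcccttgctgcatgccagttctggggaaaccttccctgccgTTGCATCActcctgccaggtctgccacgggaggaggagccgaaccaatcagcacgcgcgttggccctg

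Atf3, chr1:191183376-191183503, minus strand: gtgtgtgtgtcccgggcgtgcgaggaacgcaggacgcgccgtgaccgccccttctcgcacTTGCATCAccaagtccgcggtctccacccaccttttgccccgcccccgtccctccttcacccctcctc

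Vldlr, chr19:27216809-27216838, plus strand: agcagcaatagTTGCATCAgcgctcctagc

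The core was present in 4 of the 12 member windows, against 3.45% of the 32851 windows of the table. It began 23 bases before the start in Asns, 193 in Chac1, 110 in Atf3 and 200 in Vldlr. The cyclic AMP response element TGACGTCA (1.55% of all windows) and the endoplasmic reticulum stress element (0.113%), searched the same way, were in none of the 12, which says only that these letters are not in the windows read.

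Total counts per library ranged from 18993192 to 28372821. The tumours control 1, control 2, induced 3 and induced 4 stood apart from the other 8. No label marks these 4 tumours, so the division rests on the expression values of these same libraries. Summed over 8 fibroblast markers the 4 tumours held 1285 to 3577 CPM, the count relative to effective library size, against 632 to 1112 CPM in the other 8. The 8 macrophage markers summed to 271 to 1780 CPM in these 4 and 169 to 399 CPM in the other 8, ranges that overlap. In these 4 libraries, longer genes lay above their mean over tumours, with Spearman's rho across 11720 genes of 0.301 to 0.382 between a gene's deviation and its exonic length. In the other 8 it was -0.424 to -0.16. Mitochondrially encoded genes took 1.08% to 1.51% of the counts in the 4 libraries and 1.08% to 3.41% in the others. The epithelial keratins were near the floor in all tumours, with Krt8 at 0.83 to 2.29 CPM and Krt18, Krt19 and Krt7 at 0 counts in 1, 3 and 3 libraries. Because the tissue was bulk, fewer cells of a type and less RNA per cell cannot be told apart.

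No member differed between induced and control tumours beyond the spread of the tumours. By edgeR's quasi-likelihood test 0 of the 10 had an adjusted p under 0.05, as did 0% of all 15199 genes, and the adjusted p was 0.999886 for each of the 10. At an unadjusted p under 0.05 there were also 0 of 10, where 2.13% of all genes tested fell under that value. No member passed with DESeq2, limma-voom or the exact permutation test, each of which called 0 genes at the adjusted threshold. The shares of all genes with p under 0.05 before adjustment were 2.59% with DESeq2, 6.55% with limma-voom and 1.96% with the exact permutation test. Of the members 0, 1 and 0 fell under it, the 1 being Phgdh with limma-voom (log2 fold change -0.33, adjusted p = 0.727). Each member had an adjusted p of 0.994 in the authors' deposited table. The induced value was nominally higher for 7 members and lower for 3, with a median log2 fold change of 0.03, against 49.8% of all genes higher. This tally was not stable, since 1 member was higher and 9 were lower with limma-voom (median -0.18), and likewise without control 1, control 2, induced 3 and induced 4 (median -0.16). None of the 10 had groups that did not overlap, a pattern met by 0.0592% of all genes. Markers of some stromal and blood cells were nominally lower in induced tumours. These were 8 of 8 for fibroblasts (767 to 3577 CPM summed in control and 632 to 2216 in induced), 8 of 8 for macrophages (268 to 1780 and 169 to 1131), 5 of 5 tested for neutrophils (12.5 to 178 and 11.8 to 31.6, summed over 6) and 6 of 6 for B cells. Endothelial markers were mixed, with 6 lower and 2 higher (median log2 fold change -0.04), as were skeletal muscle markers, with 5 lower and 3 higher. With edgeR, 5 of 5 neutrophil, 3 of 6 B cell and 1 of 8 fibroblast markers had an unadjusted p under 0.05, against 2.13% of all genes. None of these markers passed the adjusted threshold, and their part in the members' values was not tested.

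**Figure D1:**
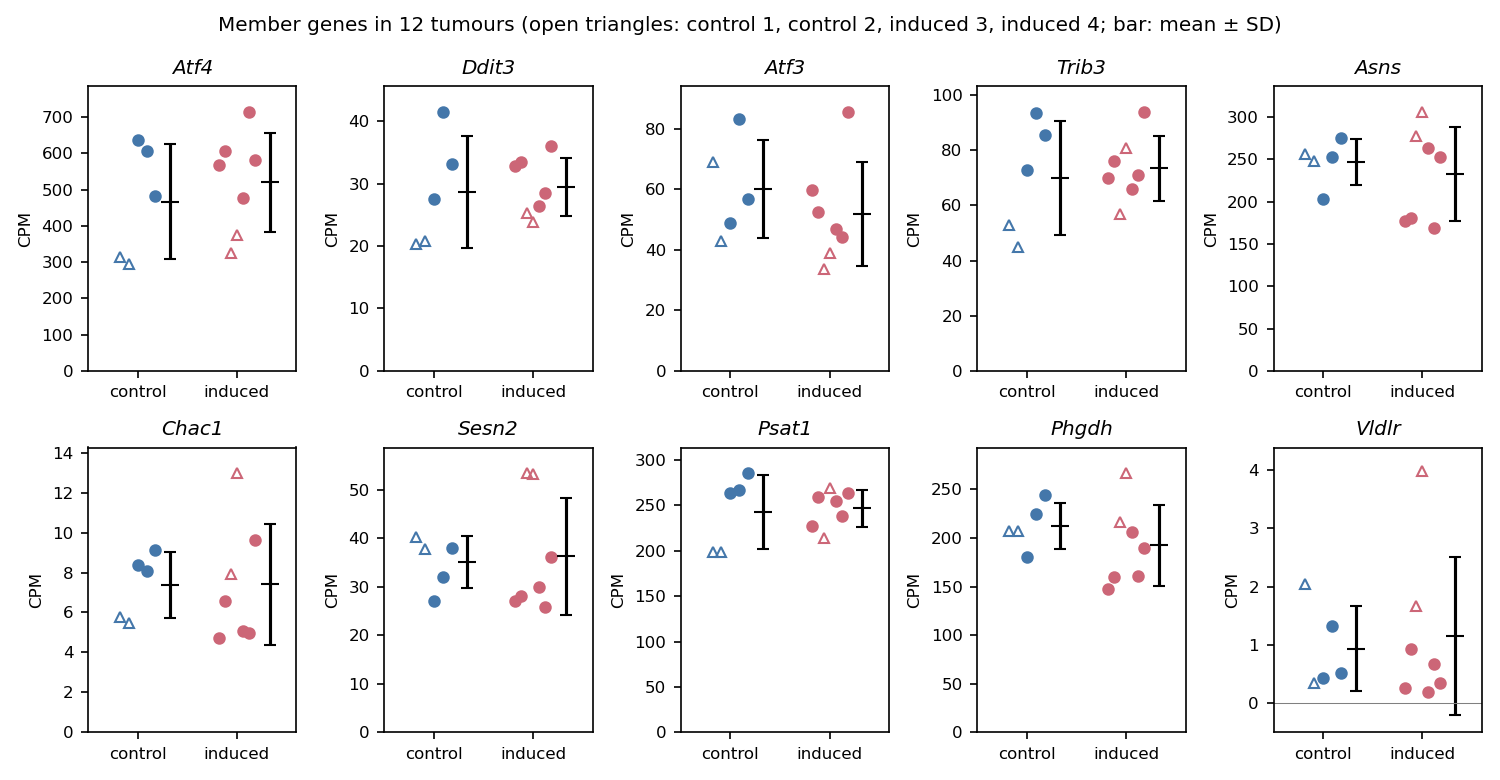
CPM of each member (y axis, from 0 except for Vldlr) in the 5 control and 7 induced tumours (x axis), 1 symbol per tumour, with the mean and SD as a bar. Open triangles are control 1, control 2, induced 3 and induced 4. The groups overlap in every panel, and the triangles are the lowest values for Atf4 and Ddit3.

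Levels were compared between genes per exonic length, as CPM per kilobase. Atf4 was the most abundant at 211 ± 60.3 CPM per kilobase (SD over 12 tumours), followed by Asns at 87.1 ± 16.3, Phgdh at 80.8 ± 14.2 and Psat1 at 57.6 ± 6.83 CPM per kilobase. Trib3 (33.9 ± 7.22), Atf3 (25.6 ± 7.73), Ddit3 (17.0 ± 3.74), Sesn2 (10.3 ± 2.74), Chac1 (4.51 ± 1.5) and Vldlr (0.105 ± 0.109) came next in that order on the same scale. The ranges over tumours did not overlap between Atf4 and Asns, between Psat1 and Trib3, or between Chac1 and Vldlr. All other neighbours in the order had overlapping ranges, although within single tumours the higher-ranked gene of such a pair was above the next in 10 to 12 of 12.

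Atf4 (ENSMUSG00000042406, chr15:80255184-80257541, plus strand, on GRCm38 as for all positions here) encodes the transcription factor at the centre of the response, and its mRNA was the member that set control 1, control 2, induced 3 and induced 4 most clearly apart. It was at 315, 294, 636, 607 and 484 CPM in control 1 to control 5. In induced tumours the lowest value was 325 CPM, the median 567 CPM and the highest 714 CPM. The 4 lowest values of all were those of control 2 (294), control 1 (315), induced 3 (325) and induced 4 (374 CPM), and the next was 477 CPM in induced 5. The groups overlapped, with a log2 fold change of 0.16 (SE 0.24, 95% interval -0.35 to 0.67), which covers folds from 0.784 to 1.59. Without control 1 and control 2, the lowest tumours, it was -0.15, the 1 change of sign among 27 alternatives. The other 26 kept the sign.

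The separation of these 4 tumours from the other 8 was not particular to Atf4. Of all genes tested, 27.1% had ranges that did not overlap between the 4 and the 8, and among the members Atf4 and Ddit3 did, 2 of 10. With the trend of each library with exonic length removed, Atf4 was at 8.28 to 8.59 in the 4 and 8.88 to 9.39 in the other 8 on the log2 CPM scale, so the ranges were still apart. With that trend removed, 20.7% of all genes and 2 of the 10 members, Atf4 and Sesn2, had ranges that did not overlap. For Ddit3 they then overlapped, at 4.37 to 4.90 and 4.71 to 5.22. For Sesn2 they came apart, at 5.28 to 5.83 in the 4 and 4.68 to 5.26 in the 8. The part of fibroblast and macrophage content in these differences was not tested.

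**Figure D2:**
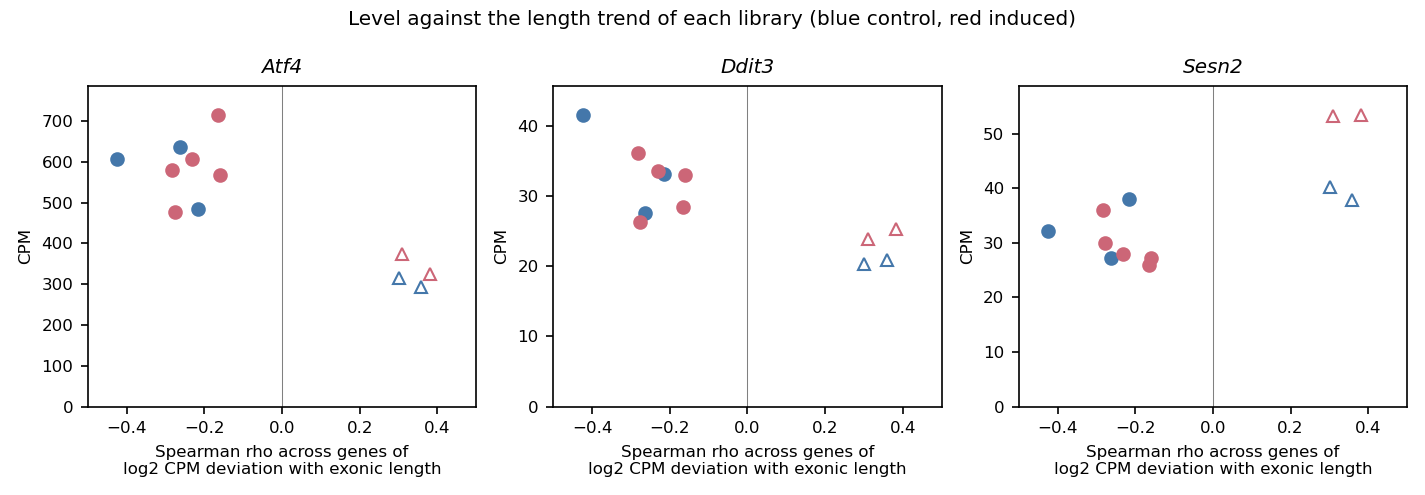
CPM of Atf4, Ddit3 and Sesn2 (y axes, from 0) against Spearman's rho across genes between deviation in log2 CPM and exonic length in the same library (x axes), 1 symbol per tumour, blue for control and red for induced. Control 1, control 2, induced 3 and induced 4 (open triangles) have rho of 0.301 to 0.382, the lowest Atf4 and Ddit3 levels, and Sesn2 levels of 37.8 to 53.4 CPM.

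Ddit3 (ENSMUSG00000025408, chr10:127290774-127296288, plus strand) encodes CHOP, a transcription factor of the C/EBP family that acts late in the response and favours cell death. It was at 20.3, 20.8, 27.5, 41.5 and 33.2 CPM in control 1 to control 5. In induced tumours it was at 23.8 CPM at the lowest, 28.5 at the median and 36.1 CPM at the highest. The extremes were thus both control tumours, control 1 and control 4, and the log2 fold change was 0.04 (SE 0.18, 95% interval -0.35 to 0.43). Of the exonic bases of Ddit3, 3.97% are shared with Mars on the opposite strand and 6.13% with a second gene model of the same name, and the sources used here do not give whether counting used strand.

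Atf3 (ENSMUSG00000026628, chr1:191170296-191218039, minus strand), a stress-induced repressor and activator of the ATF family, had 69.1, 42.8, 48.7, 83.4 and 56.8 CPM in control 1 to control 5. The induced tumours ranged from 33.8 to 85.6 CPM with a median of 47.0 CPM. Only 1 of the 7 induced tumours, induced 7, lay above the control mean, and this tumour was also the highest of all 12. The log2 fold change was -0.22 (SE 0.22, 95% interval -0.70 to 0.26), and its sign was negative under each of the 27 alternatives run.

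Trib3 (ENSMUSG00000032715, chr2:152337422-152344032, minus strand) encodes a pseudokinase that is induced by ATF4 and CHOP and binds ATF4 to restrain it. It was at 52.9, 44.8, 72.7, 93.6 and 85.3 CPM in control 1 to control 5, and at 57.0 to 93.9 CPM in induced tumours with a median of 70.8 CPM. Control 1 and control 2 were the lowest of the 12, and control 4 and induced 7 the highest. The log2 fold change was 0.07 (SE 0.18, 95% interval -0.31 to 0.46) and -0.20 without control 1 and control 2.

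The enzymes of amino acid synthesis had the narrowest intervals. Asns (ENSMUSG00000029752, chr6:7675169-7693254, minus strand), asparagine synthetase, was at 256, 248, 202, 252 and 275 CPM in control 1 to control 5 and at 169 to 306 CPM in induced tumours (median 253 CPM). Phgdh (ENSMUSG00000053398, chr3:98313170-98339990, minus strand), which catalyses the first step of serine synthesis, was at 207, 208, 180, 225 and 244 CPM in control 1 to control 5 and at 148 to 266 CPM in induced tumours (median 190 CPM). For both genes the highest tumour was induced 4, and induced 1, induced 2 and induced 6 were the 3 lowest.

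Their log2 fold changes were -0.09 for Asns (SE 0.16, 95% interval -0.43 to 0.25) and -0.14 for Phgdh (SE 0.14, 95% interval -0.45 to 0.16), negative under each of the 27 alternatives. Psat1 (ENSMUSG00000024640, chr19:15904678-15947337, minus strand), the transaminase of the second step of serine synthesis, was the steadiest member, with a coefficient of variation of 11.9% over the 12 tumours. It was at 199, 198, 264, 267 and 285 CPM in control 1 to control 5 and at 214 to 269 CPM in induced tumours (median 255 CPM), so control 1 and control 2 were the lowest. Its log2 fold change was 0.02 (SE 0.11), and the 95% interval of -0.21 to 0.26 covers folds from 0.863 to 1.20.

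Chac1 (ENSMUSG00000027313, chr2:119351229-119354381, plus strand) breaks down glutathione and is a target of ATF4 and CHOP. It was at 5.76, 5.47, 8.36, 8.08 and 9.14 CPM in control 1 to control 5 and at 4.70 to 13.0 CPM in induced tumours (median 6.60 CPM). The highest tumour was induced 4, and the log2 fold change of 0.01 (SE 0.27, 95% interval -0.56 to 0.59) was -0.18 without it. Without control 1, control 2, induced 3 and induced 4 it was -0.46 (adjusted p = 0.99, edgeR).

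Sesn2 (ENSMUSG00000028893, chr4:132492032-132510501, minus strand) encodes sestrin 2, a leucine sensor that restrains mTORC1. It was at 40.3, 37.8, 27.2, 32.1 and 38.1 CPM in control 1 to control 5 and at 25.9 to 53.4 CPM in induced tumours (median 30.0 CPM). Induced 3 and induced 4 were the highest, at 53.4 and 53.2 CPM. The log2 fold change was 0.05 (SE 0.20, 95% interval -0.39 to 0.49) and -0.15 without control 1, control 2, induced 3 and induced 4.

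Vldlr (ENSMUSG00000024924, chr19:27216484-27254231, plus strand), a lipoprotein receptor raised by ATF4 under stress, was the lowest member, with 4 to 108 counts per library. It was at 2.05, 0.35, 0.44, 1.32 and 0.52 CPM in control 1 to control 5 and at 0.18 to 3.99 CPM in induced tumours (median 0.67 CPM), and the 2 highest were induced 4 and control 1. The log2 fold change was 0.30 with an SE of 0.73, and it was -0.48 without induced 4 and 0.82 without control 1. The interval from -1.27 to 1.87 covers folds from 0.415 to 3.67. Its coefficient of variation over the tumours was 104%, where genes of like level had a median of 46.7%.

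**Figure D3:**
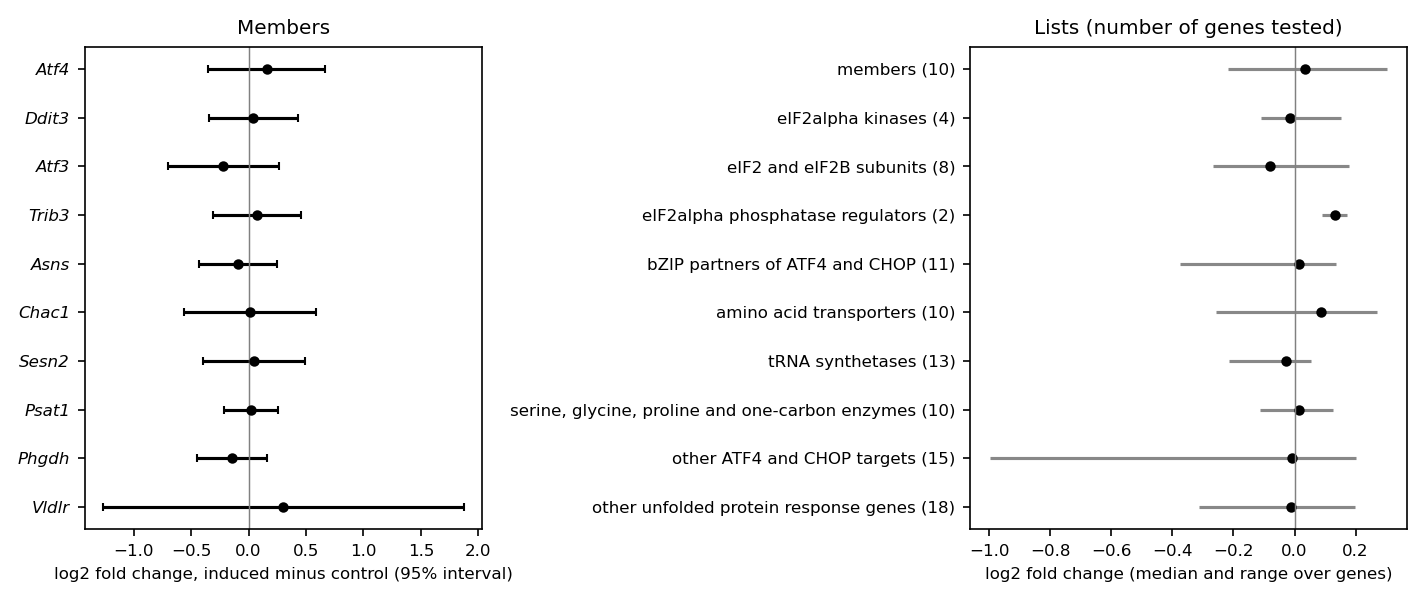
Left, log2 fold change of each member, induced minus control (x axis), with its 95% interval. All 10 intervals include 0, and that of Vldlr is the widest, from -1.27 to 1.87. Right, the median (point) and range (line) of log2 fold changes over the genes tested in each list, with medians from -0.08 to 0.13.

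The remaining genes of the pathway were described by lists of upstream, partner and target genes. None of the 91 list entries tested passed the test in either direction, so the directions that follow are nominal. Nupr1 is entered under both partners and targets. Of 4 eIF2alpha kinases, 1 was higher in induced tumours and 3 were lower, with a median log2 fold change of -0.01. Eif2ak3 (PERK), the kinase of endoplasmic reticulum stress, averaged 30.7 ± 2.81 CPM over the 5 controls and 34.2 ± 4.05 CPM over the 7 induced tumours (SD, as for each pair of values in that order from here on). Eif2ak1, the haem-regulated kinase, averaged 41.7 ± 5.07 and 38.7 ± 7.27 CPM. Eif2ak2 (PKR), the kinase of double-stranded RNA, averaged 109.9 ± 24.2 and 108 ± 17.7 CPM, and Eif2ak4 (GCN2), the kinase of amino acid shortage, 39.3 ± 3.38 and 39.3 ± 2.81 CPM. Of 8 subunits of eIF2 and of its exchange factor eIF2B, 7 were lower and 1 higher, with a median of -0.08. Among them Eif2b3 was at 41.0 ± 2.37 and 37.2 ± 5.43 CPM and Eif2b2 at 51.9 ± 10.7 and 43.1 ± 15.2 CPM. Eif2b1 was at 47.4 ± 3.07 and 44.6 ± 5.08 CPM, and Eif2s1, which encodes eIF2alpha itself, at 366 ± 37.4 and 342 ± 54.7 CPM. Both regulatory subunits of the phosphatase that resets eIF2alpha were higher. The constitutive subunit Ppp1r15b was at 162 ± 24.3 and 182 ± 32.0 CPM and the stress-induced subunit Ppp1r15a (GADD34) at 77.6 ± 13.0 and 82.6 ± 12.5 CPM.

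Partners and targets of ATF4 had medians close to that of all genes. The median log2 fold change over all 15199 genes was -0.000828. Of 11 listed partners, bZIP factors and Nupr1, 6 were higher and 5 lower. Cebpd, a C/EBP factor of inflammation, was at 16.3 ± 3.51 and 13.2 ± 2.86 CPM, and Batf2 at 17.4 ± 8.12 and 13.7 ± 4.76 CPM. The AP-1 subunit gene Jun was at 330.2 ± 17.6 and 363 ± 69.5 CPM, and Cebpg at 115 ± 22.4 and 123 ± 13.9 CPM. Of 10 amino acid transporters tested, 7 were higher and 3 lower, with a median of 0.09. Slc1a4, a carrier of neutral amino acids, was at 29.5 ± 8.06 and 35.5 ± 9.16 CPM, and Slc38a2, a glutamine carrier, at 296 ± 28.8 and 318 ± 24.5 CPM. Slc7a1, a carrier of cationic amino acids, was at 119 ± 14.0 and 128 ± 14.1 CPM, and Slc7a5, a carrier of large neutral amino acids, at 248 ± 43.2 and 269.9 ± 35.4 CPM. Of 13 genes for tRNA synthetases and tRNA export, 4 were higher and 9 lower, with a median of -0.03. The synthetase genes Mars and Wars were at 120 ± 15.2 and 103 ± 27.2 CPM, and at 66.9 ± 7.46 and 63.0 ± 5.61 CPM. Lars was at 167 ± 25.5 and 154 ± 31.6 CPM and Eprs at 363 ± 18.2 and 377 ± 26.9 CPM. Of 10 enzymes of serine, glycine, proline and one-carbon metabolism, 6 were higher and 4 lower, with Got1 at 84.8 ± 5.43 and 90.9 ± 6.45 CPM and Shmt1 at 35.8 ± 2.80 and 33.1 ± 3.34 CPM. Gpt2, an alanine transaminase, was at 51.0 ± 10.1 and 55.6 ± 7.20 CPM, and Shmt2, the mitochondrial counterpart of Shmt1, at 276 ± 36.8 and 261 ± 27.2 CPM.

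Other targets of ATF4 and CHOP included the gene with the smallest unadjusted p of these lists. Of 15 tested, 7 were higher and 8 lower. Sesn3, a sestrin like Sesn2, averaged 3.01 ± 2.04 and 1.51 ± 0.552 CPM, with a log2 fold change of -0.998 (SE 0.39, adjusted p = 0.999886 with edgeR). Of the 91 entries it was the 1 with an unadjusted p under 0.05, a share of 1.1% against 2.13% of all genes tested. Without control 1 its log2 fold change was -0.54, and it was then no longer under that value. Herpud1, a gene of protein degradation at the endoplasmic reticulum, was at 59.8 ± 9.45 and 65.1 ± 9.32 CPM. Ddit4, an inhibitor of mTORC1, was at 45.4 ± 18.01 and 38.5 ± 12.6 CPM, and Ndrg1, a gene raised by hypoxia, at 442 ± 62.0 and 506 ± 191 CPM. Of 18 genes from the other branches of the unfolded protein response, 6 were higher and 12 lower, with the chaperone gene Calr at 617 ± 107.4 and 531 ± 57.9 CPM and the co-chaperone gene Dnajb9 at 46.3 ± 5.80 and 53.1 ± 10.2 CPM. Sdf2l1 was at 36.9 ± 11.2 and 29.7 ± 8.23 CPM, and Sel1l, a gene of protein degradation at the endoplasmic reticulum, at 93.9 ± 5.95 and 101.5 ± 12.6 CPM.

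Beyond the groups, the members varied between tumours. Coefficients of variation over the 12 tumours were 28.5% for Atf4, 30.1% for Atf3, 26.6% for Sesn2, 22.0% for Ddit3 and 21.3% for Trib3. For genes within 0.5 log2 units of the same mean CPM the median coefficient was 14.3% to 15.7%. Of those genes, 91.4% varied less than Atf4, 92.2% less than Atf3 and 85.3% less than Sesn2, while Psat1 varied more than 33.6% of its equals. The most variable members were the 2 of lowest level, Vldlr at 104% and Chac1 at 33.2%, against medians of 46.7% and 25.3% among genes of their level.

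**Figure D4:**
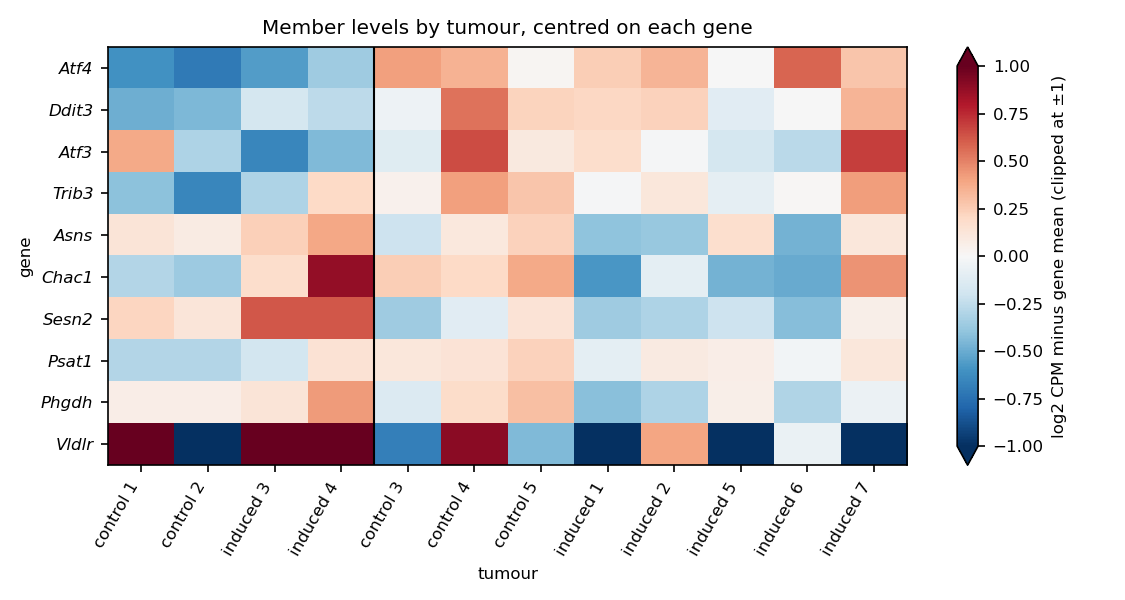
Log2 CPM of each member minus its mean over the 12 tumours (colour, clipped at 1 in either direction), with genes in rows and tumours in columns. The line separates control 1, control 2, induced 3 and induced 4 on the left from the other 8, and Atf4 and Ddit3 are below their means in all 4 tumours left of it while Asns, Phgdh and Sesn2 are above theirs.

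Pearson correlations of log2 CPM were computed for all 45 pairs of members over the 12 tumours, with permutation tests adjusted over the 45. In 7 pairs the adjusted p was under 0.05, 6 positive and 1, Atf4 with Sesn2, negative. The share of all gene pairs that would pass this test was not computed. An r of at least 0.7 in size was met by 17.8% of member pairs and 13.8% of all pairs. The values of Atf4 and Ddit3 fell into separate ranges, so no pooled coefficient is given for pairs with either, which include Atf4 with Sesn2, Atf4 with Ddit3 and Ddit3 with Trib3 among the 7. Asns and Phgdh had r = 0.937 (adjusted p = 0.00135, permutation test) and Spearman's rho = 0.825 (adjusted p = 0.0245, permutation test). Without the 2 tumours farthest from the median of Asns, induced 1 and induced 6, r was 0.908. Within the 8 tumours other than control 1, control 2, induced 3 and induced 4 it was 0.922 (adjusted p = 0.035, exact permutation test). Spearman's rho for the pair within the 8 was 0.857 (adjusted p = 0.14, exact permutation test).

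Sesn2 was correlated with the same 2 enzymes over all 12 tumours, but neither pair passed within the 8. With the length trend removed, the Sesn2 ranges did not overlap between these 8 and the other tumours. The part of that separation in the pooled coefficients was not tested. With Asns it had r = 0.833 (adjusted p = 0.0106, permutation test), rho = 0.881 (adjusted p = 0.0108, permutation test), r = 0.781 without induced 1 and induced 6, and r = 0.860 within the 8 tumours (adjusted p = 0.0572, exact permutation test). With Phgdh it had r = 0.777 (adjusted p = 0.0234, permutation test), rho = 0.811 (adjusted p = 0.0253, permutation test), r = 0.753 without induced 3 and induced 4, and r = 0.791 within the 8 (adjusted p = 0.105, exact permutation test).

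Trib3 and Psat1 had r = 0.901 (adjusted p = 0.00157, permutation test), rho = 0.874 (adjusted p = 0.0108, permutation test) and r = 0.783 without control 1 and control 2. Within the 8 tumours their r was 0.613 (adjusted p = 0.294, exact permutation test), so this pair did not pass there. Within the 8, Ddit3 and Trib3 had r = 0.851 (adjusted p = 0.0572, exact permutation test) and Ddit3 and Psat1 r = 0.269 (adjusted p = 0.652, exact permutation test). Psat1 and Phgdh, which catalyse neighbouring steps of serine synthesis, had r = 0.189 over the 12 tumours (rho = 0.357) and r = 0.832 within the 8 (adjusted p = 0.0572, exact permutation test).

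Within the 8 tumours, 3 of the 45 pairs had an adjusted exact p under 0.05 for Pearson's r. These were Asns with Phgdh, Ddit3 with Atf3 (r = 0.885, adjusted p = 0.035, exact permutation test) and Chac1 with Psat1 (r = 0.853, adjusted p = 0.035, exact permutation test). No pair passed by Spearman's rho within the 8, where each of these 3 had an adjusted p of 0.14 (exact permutation test). How many of all gene pairs would pass there was not computed. Of all pairs 10.8% had r of at least 0.7 in size within the 8, against 31.1% of member pairs. Psat1 had r = 0.744 with Asns and 0.754 with Sesn2 there, and Trib3 had r = 0.751 with Sesn2, where the same pairs were at 0.058, -0.20 and -0.20 over the 12 tumours. No pair with Atf4 was among the 3. Its r within the 8 tumours was 0.04 with Ddit3, -0.0025 with Trib3, -0.07 with Atf3, -0.72 with Asns (adjusted p = 0.155, exact permutation test) and -0.60 with Sesn2 (adjusted p = 0.294, exact permutation test). For Atf4 with Chac1, Psat1, Phgdh and Vldlr, r there was -0.10, -0.39, -0.57 and 0.51.

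Correlation between genes was common in these tumours. Over all 45 member pairs, those with Atf4 or Ddit3 included, the median r was 0.189 over the 12 tumours and 0.497 within the 8. The medians over all pairs of genes tested were -0.0039 and -0.0013. A coefficient of at least 0.7 in size was found in 17.8% of member pairs over the 12 tumours, against 13.8% of all pairs. Within the 8 tumours the shares were 31.1% and 10.8%. These are descriptions, since all pairs share the same libraries.

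**Figure D5:**
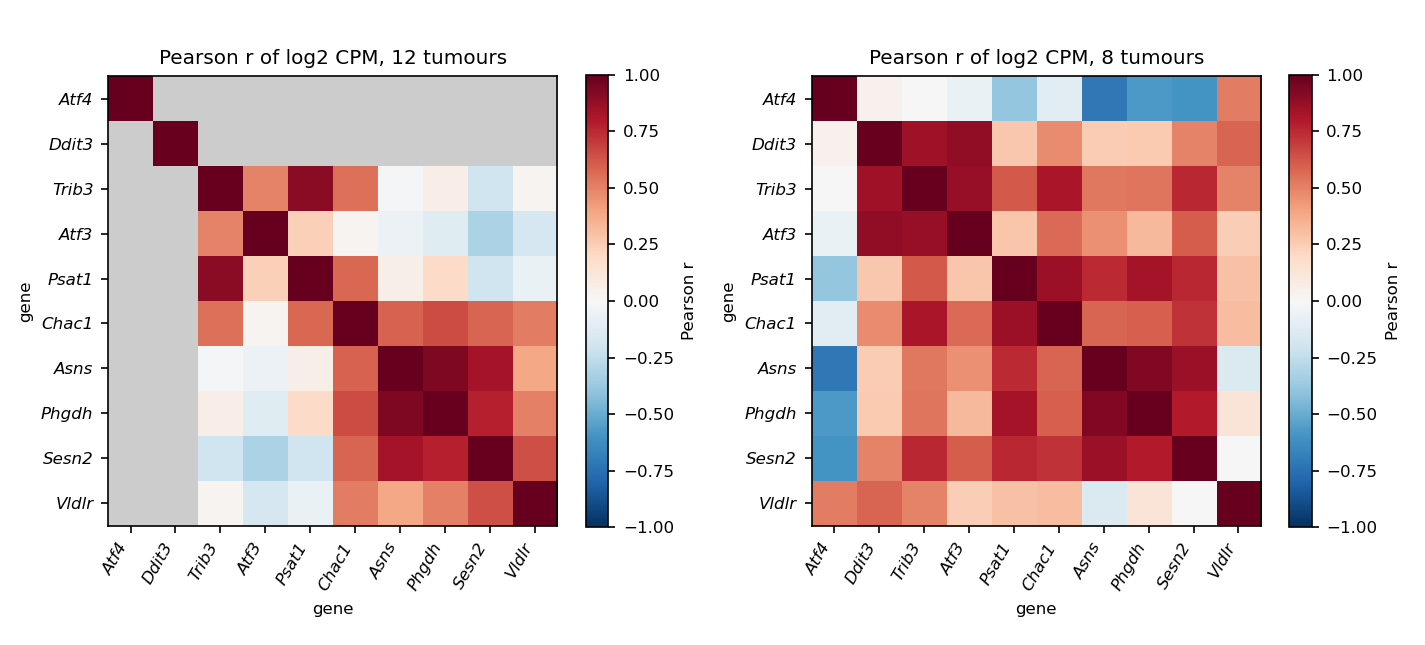
Pearson r of log2 CPM between members (colour, -1 to 1) over all 12 tumours (left) and over the 8 tumours other than control 1, control 2, induced 3 and induced 4 (right), with genes in the same order on each axis. Grey marks pairs with Atf4 or Ddit3 over 12 tumours, for which no pooled value is given. Asns, Phgdh and Sesn2 are at 0.777 to 0.937 with each other on the left, and Atf4 is at -0.72 with Asns on the right.

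Genes most like the members were ranked by Pearson r with the mean standardised log2 CPM of the 10 members over the 12 tumours, among 10894 other genes. The closest were Yars, a tyrosyl-tRNA synthetase (r = 0.864), Bphl (0.862), the alanine transaminase Gpt2 (0.850), Bud13 (0.833) and Ntpcr (0.817). Nme6 (0.805), Pck2, a mitochondrial phosphoenolpyruvate carboxykinase (0.803), Ptp4a3 (0.791), Adh7 (0.782) and Ankrd46 (0.776) followed. These were the highest of 10894 coefficients over 12 tumours. How many of this size arise among unrelated genes was not tested. Yars averaged 63.5 ± 11.97 and 60.8 ± 7.77 CPM, and both Yars and Gpt2 are also in the lists above. The genes ranked closest to Atf4 alone over the 12 tumours, where the 2 ranges of Atf4 enter the ranking, were Plekhj1, the poly(A)-binding protein gene Pabpc4, the RNA polymerase subunit gene Polr2l, Emc6 and the eIF2 subunit gene Eif2s2. Within the 8 tumours their r with Atf4 was 0.941, 0.920, 0.930, 0.898 and 0.896. The 8 tumours are part of the 12 used for the ranking, so these values are no independent check of it. Of these 5 genes 1, Eif2s2, was in the lists above. Those lists held 91 entries among the 15199 genes tested, and neither overlap was tested.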

How the data were processed

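The deposited table holds, per the file headers, raw counts by Ensembl gene and rlog values on a log2 scale. It also holds the authors' own comparison as log2 fold change, p-value, adjusted p-value and a score that is a fold with a minus sign where lower. Aligner, counter, strand setting and the test behind the comparison: not given in the sources used here. Per the submitters' processing notes the build was GRCm38 (mm10). The labels' protocol text on cell culture describes fat cell differentiation and does not match tumours, so groups come from the sample titles. The rlog values were not used.

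The main test was that of edgeR 4.0.16 under R 4.3.3 (filterByExpr with a minimum count of 10, TMM factors, robust quasi-likelihood F test, two-sided, Benjamini-Hochberg over all 15199 genes, threshold 0.05). CPM use TMM effective library sizes, and log2 CPM a prior count of 2. Permutation tests of correlations were two-sided with 100000 resamples, exact within 8 tumours. Exonic lengths and overlaps came from GENCODE mouse release M21. On simulated counts of this comparison with 14912 genes tested, 80 of 100 genes changed 2-fold and 99 of 100 changed 4-fold were called. Of 14712 unchanged genes, 6 were called. The simulation set the spread of a gene by its level alone and held no separation of the 4 tumours from the 8. Changed genes had a mean log2 CPM over 1. These shares are therefore not the power for the members. The median SE of a log2 fold change was 0.183. Libraries within a group differed by a chi-square of 13 to 220 per gene, so none agreed within sampling noise. Alternatives were other size factors, filters and tests, DESeq2 1.42.0, limma 3.58.1, sva 3.50.0, a replicate block and the removal of libraries. The removal of the length trend (loess span 0.3) was chosen after seeing the data. Named genes were all members, up to 4 genes of smallest p in each list, and the genes most correlated with the members or with Atf4. Members and lists were chosen with earlier results of these data known.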

Additional observations from a re-analysis of the deposited data

How the results depend on the processing

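The count of genes past the threshold was 0 under each of the 27 alternatives, and the median log2 fold change of the members stayed between -0.18 and 0.10. No member or named list gene passed under any alternative, although Vldlr and Sesn3 gave no value under the filter of mean log2 CPM over 1. Atf3, Asns and Phgdh were lower in induced tumours under each one. Other log2 fold changes turned sign as follows, and the cause was not tested. With limma-voom they were -0.064 for Ddit3, -0.12 for Trib3, -0.41 for Chac1, -0.18 for Sesn2, -0.11 for Psat1, -0.41 for Vldlr, 0.12 for Eif2ak2, 0.047 for Eif2ak4, -0.035 for Slc1a4, -0.011 for Slc7a5, -0.00051 for Gpt2 and -0.090 for Herpud1. With 1 surrogate variable they were -0.034 for Ddit3, -0.0015 for Psat1, 0.040 for Eif2ak2 and 0.032 for Eif2ak4, and with the exact permutation test -0.053 for Chac1, -0.0010 for Sesn2 and -0.054 for Vldlr. With a term for control 1, control 2, induced 3 and induced 4 they were 0.021 for Eif2ak2 and 0.021 for Eif2ak4, and with the length trend removed 0.014 for Eif2ak2 and 0.033 for Eif2ak4. Without control 1 and control 2 they were -0.15 for Atf4, -0.22 for Ddit3, -0.20 for Trib3, -0.20 for Chac1, -0.15 for Psat1, 0.0085 for Eif2ak1, 0.16 for Eif2ak2, 0.083 for Eif2ak4, -0.014 for Ppp1r15a, -0.089 for Cebpg, 0.032 for Lars, -0.045 for Gpt2 and -0.032 for Herpud1. Without control 1, control 2, induced 3 and induced 4 they were -0.12 for Ddit3, -0.16 for Trib3, -0.46 for Chac1, -0.15 for Sesn2, -0.14 for Psat1, -0.69 for Vldlr, 0.099 for Eif2ak2, 0.034 for Eif2ak4, -0.031 for Cebpg, -0.21 for Slc1a4, -0.067 for Slc7a5, -0.0059 for Eprs, -0.079 for Gpt2 and -0.15 for Herpud1. Leaving out 1 library at a time gave -0.069 to 0.21 for Ddit3, -0.061 to 0.20 for Trib3, -0.18 to 0.11 for Chac1, -0.072 to 0.11 for Sesn2, -0.050 to 0.091 for Psat1, -0.48 to 0.82 for Vldlr, -0.13 to 0.062 for Eif2ak2, -0.036 to 0.027 for Eif2ak4 and -0.021 to 0.14 for Ppp1r15a. Without control 1, control 2, induced 3 and induced 4 Phgdh kept its sign at -0.33 (adjusted p = 0.99, edgeR). It was the 1 member of 10 with an unadjusted p under 0.05 in that fit. The share of all genes under that value in the same fit is not given here.

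With the replicate block the count of genes past the threshold stayed at 0 and the values that turned were -0.049 for Chac1, 0.057 for Eif2ak2, 0.039 for Eif2ak4 and -0.056 for Ndrg1. Tumours with the same number had correlations of deviations from -0.531 to 0.21, and no control tumour correlated best with its own number. The best match of control 1 was induced 4 and that of control 2 was induced 3. These matches follow the separation of control 1, control 2, induced 3 and induced 4 from the other tumours, which can hide a weaker pairing. Whether the numbers pair the tumours therefore cannot be decided from these correlations.

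The median r over member pairs was 0.497 without control 1, control 2, induced 3 and induced 4, 0.238 with groups centred, and 0.134 to 0.268 with 1 library left out. Vldlr rested on 4 to 108 counts in a library.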
